A study of Mus musculus with 12 samples.

Results

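The 9 genes described here are natural killer (NK) type lectin receptors, adaptor proteins that signal for such receptors, and 2 further genes listed with them: Klra17, Klra2, Klrb1b, Klrk1, Clec2d, Sh2d1b1, Hcst, Dnase1l3 and Asb2. They were found by symbol, and all 9 stood among the 24346 gene symbols of every table. They were chosen on values of these same libraries, in comparisons of the same 4 groups, so their differences between groups are given as a description and not as a test.

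The libraries are bulk RNA-seq of macrophages sorted from tumours of mice that carry Arg1-RFP, a red fluorescent reporter of arginase 1. The tumours were grown from B16F10, a mouse melanoma line, or from MC38, a mouse colon carcinoma line. The sort took CD11b+ F4/80+ MHCII+ cells among CD45+ cells, negative for CD90.2, B220, NK1.1, Ly6G and Ly6C, so the gate removed T, B and NK cells by their surface markers. The 4 groups of 3 libraries were RFP+ cells from B16F10 (titles numbered 12, 11 and 3), RFP- cells from B16F10 (the same numbers), RFP+ cells from MC38 (1, 2 and 3) and RFP- cells from MC38 (the same numbers). All mice carried the reporter and a tumour, and no tumour-free group is used here. Neither sex nor age was given in the sources used here. The design text gives 3 per group without tying libraries to animals, and errors therefore measure the spread between libraries, part of which may be technical.

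Most of these genes were first studied in NK cells. Klr and Clec2 genes lie together in the NK gene complex and encode C-type lectin-like proteins of the cell surface. Ly49 receptors (the Klra genes) read class I MHC molecules on other cells, and most of them inhibit the cell that carries them. Klrb1b encodes an inhibitory receptor (NKR-P1B) whose ligand is the protein of Clec2d. Klrk1 encodes NKG2D, an activating receptor for stress-induced ligands, and it signals through the small adaptor of Hcst (DAP10) or, in mouse, through that of Tyrobp. Sh2d1b1 encodes EAT-2, a cytoplasmic adaptor that docks on receptors of the SLAM family. Dnase1l3 encodes a secreted nuclease that digests DNA in chromatin and in cell debris. Asb2 encodes the part of a Cullin-RING ubiquitin ligase that picks its substrates, among them the actin-binding protein filamin A (Flna).

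Klra17 lies on chromosome 6 at 129831154 to 129876672, Klra2 at 131219223 to 131247362, Klrb1b at 128813706 to 128826331, Klrk1 at 129610323 to 129623864 and Clec2d at 129180615 to 129186534 (GRCm38, GENCODE annotation). Clec2d is on the plus strand and the other 4 are on the minus strand. Sh2d1b1 lies on chromosome 1 at 170277320 to 170286769, Hcst on chromosome 7 at 30417712 to 30419854, Dnase1l3 on chromosome 14 at 7964533 to 7994573 and Asb2 on chromosome 12 at 103321142 to 103356001. RefSeq promoters (GRCm38.p6, 250 bases before to 50 bases after the start) were found for 8 of the 9 genes, 10 promoters in all. Those of Klra17, Klra2, Klrk1 and Sh2d1b1 are printed because Klra17 and Klra2 are sister Ly49 genes whose RFP gates lay apart for 1 and overlapped for the other, and because Klra2, Klrk1 and Sh2d1b1 held the most motif matches. They span chr6:129876623-129876922 (minus strand), chr6:131247313-131247612 (minus strand), chr6:129623815-129624114 (minus strand) and chr1:170277068-170277367 (plus strand). Capitals mark matches to 5 motifs searched on both strands.
Klra17: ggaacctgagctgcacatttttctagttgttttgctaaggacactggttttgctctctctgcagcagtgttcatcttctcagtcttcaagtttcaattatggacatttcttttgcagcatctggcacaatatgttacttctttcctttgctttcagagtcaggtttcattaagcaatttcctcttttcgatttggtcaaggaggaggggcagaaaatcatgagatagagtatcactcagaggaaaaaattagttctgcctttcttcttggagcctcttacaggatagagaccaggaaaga
Klra2: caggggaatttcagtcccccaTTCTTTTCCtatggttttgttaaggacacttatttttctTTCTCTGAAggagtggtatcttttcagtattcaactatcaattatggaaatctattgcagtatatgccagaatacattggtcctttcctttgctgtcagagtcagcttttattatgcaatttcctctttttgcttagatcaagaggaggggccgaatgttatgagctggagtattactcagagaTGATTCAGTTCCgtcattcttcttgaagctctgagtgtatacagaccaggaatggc
Klrk1: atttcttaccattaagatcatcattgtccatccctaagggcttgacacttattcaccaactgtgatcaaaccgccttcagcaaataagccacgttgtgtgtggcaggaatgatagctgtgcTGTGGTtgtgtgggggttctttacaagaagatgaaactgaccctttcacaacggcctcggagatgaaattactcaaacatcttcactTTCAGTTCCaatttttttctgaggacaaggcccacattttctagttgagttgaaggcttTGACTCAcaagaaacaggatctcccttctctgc
Sh2d1b1: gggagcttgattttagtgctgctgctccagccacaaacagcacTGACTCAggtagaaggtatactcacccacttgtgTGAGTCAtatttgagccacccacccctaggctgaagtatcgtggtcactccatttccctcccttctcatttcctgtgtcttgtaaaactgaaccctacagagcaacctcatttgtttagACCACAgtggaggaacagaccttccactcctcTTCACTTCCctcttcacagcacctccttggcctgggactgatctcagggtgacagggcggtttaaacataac
The Klra17 and Klra2 promoters were identical at 231 of 308 aligned columns (75%), against 46.9% to 51.4% for the other pairs of genes. Klra17 held no match to any of the 5 motifs in this window. The ETS-IRF composite motif GGAANNGAA, a joint site of PU.1-type and IRF factors, matched in 3 of the 10 promoters and in 8.24% of all 32851 promoters in the table. Its matches nearest the start, read on the gene's strand as TTCAGTTCC in Klra2 and Klrk1 and as TTCACTTCC in Sh2d1b1, began 3, 42 and 22 bases before it. The AP-1 motif TGANTCA matched in the same 3 promoters and in 7.81% of all promoters, with both Sh2d1b1 matches upstream of the start, and in Klra2 it overlaps the ETS-IRF match. The Runx motif TGTGGT matched in 3 (16.8% of all promoters), the PU.1 motif GAGGAAG in 1 (Asb2, 13.6%) and the STAT motif TTCNNNGAA in 1 (Klra2, 8.3%). These matches are letters in a window, and binding was not measured.

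Total FPKM, fragment counts divided by transcript length and sequencing total, ran from 614875 to 815591 per library, and 10445 to 11103 genes reached 1 FPKM. Arg1 was 615, 642 and 916 FPKM in B16F10 RFP+ and 62.8, 56.2 and 125 FPKM in B16F10 RFP-, and 471, 553 and 394 FPKM in MC38 RFP+ and 56.0, 58.5 and 40.6 FPKM in MC38 RFP-, so every library matched its gate label. B16F10 RFP- library 12 stood apart, with the highest total FPKM and the most genes listed at 0 (10597), and B16F10 values of the gate comparison are therefore also given without it. Judged by the smallest nonzero values, a single fragment carried 3.02 to 3.62 times the FPKM in B16F10 that it did in the deepest library, which was from MC38, and 1 to 1.18 times across MC38. Low values in B16F10 thus rest on fewer fragments. The sum of 13 macrophage core genes (Csf1r, Adgre1, Apoe and others) was 9855 to 20684 FPKM in B16F10 RFP+ and 8009 to 20282 FPKM in B16F10 RFP-, against 58813 to 63909 FPKM in MC38 RFP+ and 41294 to 45892 FPKM in MC38 RFP-. Melanocytic genes summed to 7771 to 10265 FPKM in B16F10 libraries of either gate and to 10.7 to 18.8 FPKM in MC38 libraries. Differences between tumours are therefore also given after scaling each library to its macrophage core genes, a step chosen after seeing the data.

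All 9 genes passed the filter of at least 1 FPKM in at least 3 libraries, and all 9 reached it in 6 of 6 MC38 libraries. In B16F10, Klrk1 reached 1 FPKM in 2 of 6 libraries, Klrb1b and Dnase1l3 in 3, Klra17 in 4 and Clec2d in 5. A gene that entered through MC38 alone had to differ between the tumours, so how many passed supports nothing. For 6 genes (Klra17, Klra2, Klrb1b, Klrk1, Sh2d1b1 and Dnase1l3) the group means ran in 1 order, highest in MC38 RFP-, then MC38 RFP+, then B16F10 RFP-, and lowest in B16F10 RFP+. Clec2d, Hcst and Asb2 each had an order of their own. In bulk RNA, fewer cells of a type and less RNA per cell cannot be told apart.

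**Figure D1:**
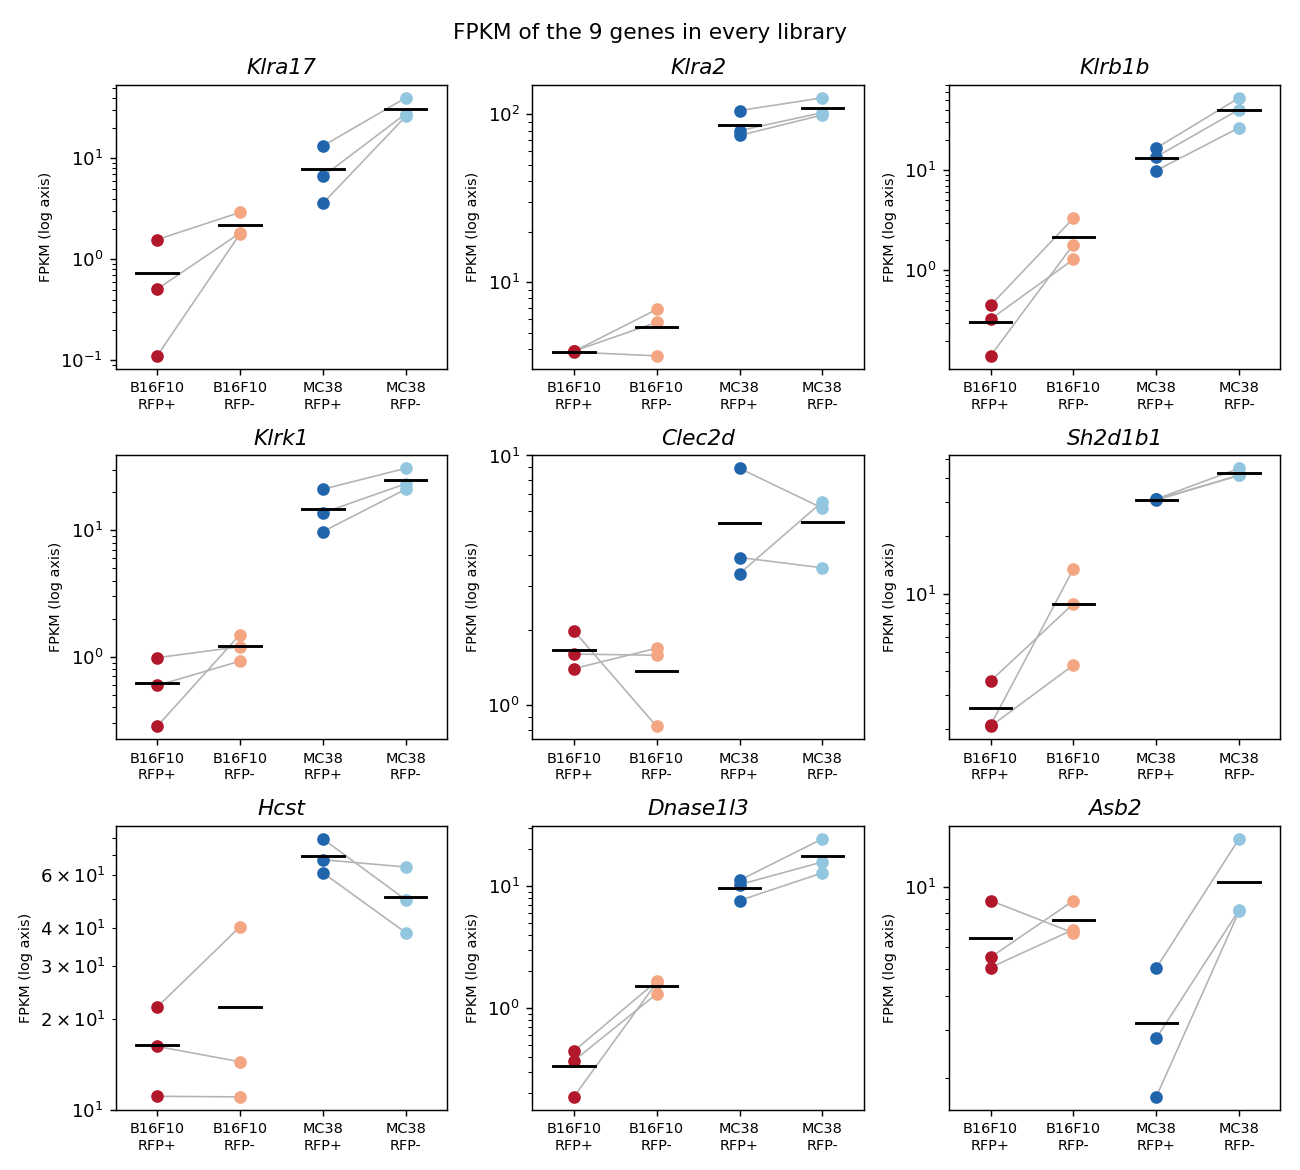
FPKM (log axis) of each of the 9 genes in every library, by tumour and RFP gate; points are libraries, bars are group means of 3 libraries, and grey lines join libraries with the same title number. Klra2 sits between 74.7 and 125 FPKM in MC38 and between 3.64 and 6.88 FPKM in B16F10, and Asb2 is lowest in MC38 RFP+.

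Klra17 (Ly49Q), an inhibitory Ly49 receptor known from plasmacytoid dendritic cells and myeloid cells, was 0.507, 0.111 and 1.57 FPKM in B16F10 RFP+ and 1.82, 1.79 and 2.92 FPKM in B16F10 RFP-. It was 6.62, 3.58 and 13.3 FPKM in MC38 RFP+ and 27.7, 26.0 and 39.7 FPKM in MC38 RFP-. The gates did not overlap in either tumour, and the RFP- mean exceeded the RFP+ mean 2.98 times in B16F10 and 3.98 times in MC38. The log2 difference RFP+ minus RFP-, on the log2(FPKM + 1) scale used throughout, which understates low genes, was -0.95 ± 0.38 (SE of the fit) in B16F10 and -1.995 ± 0.38 in MC38. Without B16F10 RFP- library 12 the B16F10 value was -1.02. Klra17 had the largest gate difference of the 9 genes in MC38.

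Klra2 (Ly49B), a Ly49 receptor known from myeloid cells, was the most abundant receptor of the set and varied mostly by tumour. It was 3.87, 3.83 and 3.88 FPKM in B16F10 RFP+ and 6.88, 3.64 and 5.76 FPKM in B16F10 RFP-. It was 79.9, 74.7 and 105 FPKM in MC38 RFP+ and 102, 99.0 and 125 FPKM in MC38 RFP-. The gates overlapped in both tumours, with a log2 difference RFP+ minus RFP- of -0.37 ± 0.20 in B16F10 (-0.20 without RFP- library 12) and -0.33 ± 0.20 in MC38. MC38 and B16F10 stood far apart, at 22.4 times in RFP+ and 20.0 times in RFP-. Reads of near-identical Ly49 genes can be split between them by the counting, so the share of each Klra gene is uncertain. Klra4, another Ly49 gene, was listed at 0 in all B16F10 libraries and averaged 5.98 ± 2.01 FPKM in MC38 RFP+ and 6.05 ± 3.39 FPKM in MC38 RFP- (SD, n = 3 libraries).

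Class I genes, whose products Ly49 receptors bind, were taken as a list of 4 (H2-K1, H2-D1, H2-L and B2m). In limma with Benjamini-Hochberg adjustment over 11808 genes, none of the 4 passed an adjusted p of 0.05 between gates in either tumour. All 4 were called lower in B16F10 than in MC38 in both gates, as were 20.0% of all genes in RFP+ and 21.9% in RFP-. H2-K1 averaged 258 ± 36.9 FPKM in B16F10 RFP+ and 1481 ± 47.2 FPKM in MC38 RFP+, a log2 difference of -2.53 ± 0.17 (limma adjusted p = 8.53e-08), and in RFP- it was -2.15 ± 0.17 (adjusted p = 3.49e-07). After core scaling 1 of the 4 was past the threshold as lower in RFP+ (2.68% of all genes) and 0 in RFP- (2.99%). H2-D1 and H2-L are near-identical, so the reads listed under each are uncertain.

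Klrb1b was 0.141, 0.447 and 0.326 FPKM in B16F10 RFP+ and 1.81, 3.32 and 1.29 FPKM in B16F10 RFP-. In MC38 it was 13.6, 16.6 and 9.92 FPKM in RFP+ and 40.3, 52.7 and 26.5 FPKM in RFP-. The gates were apart in both tumours, and each RFP+ library was lower than its RFP- library of the same number. The RFP- mean was 7.02 times the RFP+ mean in B16F10 and 2.98 times in MC38. The log2 difference RFP+ minus RFP- was -1.22 ± 0.29 in B16F10 (-1.28 without RFP- library 12) and -1.48 ± 0.29 in MC38. The MC38 mean was 43.9 times the B16F10 mean in RFP+ cells and 18.6 times in RFP- cells, the largest ratio between tumours among the 9 genes in RFP+.

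Clec2d (Clr-b), the ligand of that receptor and itself a lectin-like protein, was low in all groups. It was 1.605, 1.99 and 1.40 FPKM in B16F10 RFP+ and 1.59, 0.824 and 1.69 FPKM in B16F10 RFP-. MC38 libraries had 3.91, 3.37 and 8.88 FPKM in RFP+ and 3.55, 6.53 and 6.16 FPKM in RFP-. The gates overlapped in both tumours, with log2 differences RFP+ minus RFP- of 0.19 (95% interval -0.48 to 0.85) in B16F10 and -0.071 (-0.73 to 0.59) in MC38. The gates were thus apart for the receptor and overlapped for its ligand. Of the other Clec2 genes, 1 of the 6 in the tables passed the filter, Clec2i, at 3.52 ± 0.674 FPKM in B16F10 RFP+ and 1.88 ± 0.843 FPKM in MC38 RFP+. It was higher in B16F10 in RFP+ by 0.68 ± 0.24 (log2, limma adjusted p = 0.0279) and did not pass in RFP- (0.26 ± 0.24, adjusted p = 0.364).

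Klrk1 was 0.593, 0.982 and 0.281 FPKM in B16F10 RFP+ and 0.923, 1.20 and 1.499 FPKM in B16F10 RFP-, levels near the filter. In MC38 it was 9.77, 13.7 and 21.1 FPKM in RFP+ and 21.1, 23.4 and 30.9 FPKM in RFP-. The gates overlapped in B16F10 and just failed to in MC38, where the highest RFP+ value was 21.13 and the lowest RFP- value 21.14 FPKM. Its log2 difference RFP+ minus RFP- was -0.46 ± 0.27 in B16F10 (-0.56 without RFP- library 12) and -0.76 ± 0.27 in MC38. All 3 numbered pairs were lower in RFP+ in each tumour.

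Hcst, the adaptor of NKG2D, had its highest mean in MC38 RFP+, where its receptor did not. It was 21.9, 11.1 and 16.2 FPKM in B16F10 RFP+ and 40.5, 11.03 and 14.4 FPKM in B16F10 RFP-, where library 12 alone was high. In MC38 it was 61.2, 67.7 and 79.3 FPKM in RFP+ and 38.7, 64.0 and 49.8 FPKM in RFP-, higher in RFP+ in each of the 3 numbered pairs although the groups overlapped. The log2 difference RFP+ minus RFP- was -0.23 ± 0.38 in B16F10 and 0.46 ± 0.38 in MC38. Without B16F10 RFP- library 12 the B16F10 value turned to 0.30, a refit that kept the RFP+ library of that number. With the title number as a block and both number 12 libraries left out, it was 0.083 (95% interval -0.27 to 0.43). Tyrobp, the DAP12 adaptor that many activating receptors of macrophages use, lies 126 bases from Hcst on the other strand. It averaged 1008 ± 239 FPKM in B16F10 RFP+ and 1152 ± 399.9 FPKM in B16F10 RFP-, and 3530.1 ± 138 FPKM in MC38 RFP+ and 3470.3 ± 329 FPKM in MC38 RFP-, far above Hcst in each group. The strand setting of the counting was not given in the sources used here, so reads running past the end of 1 gene could be counted for the other.

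NKG2D ligand genes were few, with 3 of the 8 in the tables past the filter. None of the 3 passed the test between gates. Raet1d had the highest levels of the 3, at 14.7 ± 1.90 FPKM in B16F10 RFP+ and 12.5 ± 0.832 FPKM in B16F10 RFP-. In MC38 it averaged 19.6 ± 2.54 FPKM in RFP+ and 13.3 ± 0.242 FPKM in RFP- (log2 difference 0.52 ± 0.15, limma adjusted p = 0.681). It was lower in B16F10 in RFP+ by -0.39 ± 0.15 (log2, limma adjusted p = 0.0425) and did not pass in RFP-. Ulbp1, which encodes the ligand MULT1, averaged 1.39 ± 0.694 FPKM in B16F10 RFP+ and 5.22 ± 0.755 FPKM in MC38 RFP+, and was lower in B16F10 by -1.42 ± 0.36 in RFP+ (log2, limma adjusted p = 0.00455) and by -1.82 ± 0.36 in RFP- (adjusted p = 0.000713). After core scaling 2 of the 3 were past the threshold as higher in RFP+ (84.0% of all genes) and 1 in RFP- (82.3%). In each gate 0 were past it as lower. Raet1e was 1.46 ± 0.124 FPKM in B16F10 RFP+ and 0.499 ± 0.297 FPKM in B16F10 RFP-, a log2 difference of 0.73 ± 0.26 that did not pass (adjusted p = 0.462). The Raet1 genes are near-identical copies, so the reads listed under each are uncertain.

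Sh2d1b1 was 3.56, 2.07 and 2.0999 FPKM in B16F10 RFP+ and 8.93, 4.30 and 13.5 FPKM in B16F10 RFP-. MC38 libraries had 31.1, 30.7 and 31.0 FPKM in RFP+ and 44.8, 41.3 and 41.2 FPKM in RFP-. The gates did not overlap in either tumour, and the RFP- mean was 3.46 times the RFP+ mean in B16F10 and 1.37 times in MC38. On the log2 scale RFP+ minus RFP- was -1.38 ± 0.29 in B16F10 (-1.32 without RFP- library 12) and -0.44 ± 0.29 in MC38. Its neighbour and paralog Sh2d1b2 (ERT), 23711 bases away, was listed at 0 in all 12 libraries, and reads shared by these copies could be counted under 1 name. Sh2d1a, which encodes the related adaptor SAP of T and NK cells, did not pass the filter, and its highest group mean was 0.334 FPKM, in MC38 RFP-.

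Receptors of the SLAM family, of which EAT-2 docks on some and not all, were present, with 8 of the 9 in the tables past the filter. None of the 8 passed between gates without the block, while with the title number as a block Slamf9 was lower in B16F10 RFP+ (-0.96 ± 0.14, adjusted p = 0.00688) and Cd84 higher (0.64 ± 0.13, adjusted p = 0.0398). Slamf9, an orphan SLAM receptor of myeloid cells, averaged 24.6 ± 8.87 FPKM in B16F10 RFP+ and 52.2 ± 30.2 FPKM in B16F10 RFP-, and 298 ± 64.5 FPKM in MC38 RFP+ and 400.1 ± 38.1 FPKM in MC38 RFP-. All 8 were called lower in B16F10 than in MC38 in both gates, as were 20.0% of all genes in RFP+ and 21.9% in RFP-. Cd244, which encodes the receptor 2B4, was lower in B16F10 by -2.46 ± 0.29 in RFP+ (adjusted p = 1.45e-05) and -3.07 ± 0.29 in RFP- (adjusted p = 1.77e-06). After core scaling 2 of the 8 were past the threshold as lower and 1 as higher in RFP+ (2.68% and 84.0% of all genes). In RFP- 4 were past it as lower and 0 as higher (2.99% and 82.3% of all genes).

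The list of receptor adaptors and proximal signalling genes had 20 of 25 genes past the filter. None passed between gates without the block. Between tumours 17 were called lower and 1 higher in B16F10 in RFP+ (20.0% and 35.2% of all genes). In RFP- 18 were called lower and 1 higher (21.9% and 37.8% of all genes). Lyn, a Src-family kinase, lay at -2.21 ± 0.20 in RFP+ (limma adjusted p = 1.32e-06) and -2.15 ± 0.20 in RFP- (adjusted p = 1.52e-06). After core scaling 1 was lower and 7 higher in RFP+ (2.68% and 84.0% of all genes). In RFP- 0 were lower and 8 higher (2.99% and 82.3% of all genes). The scaled median of the list was 0.19 in RFP+ and 0.27 in RFP-, beside 1.87 and 1.89 over all genes.

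Dnase1l3, which macrophages and dendritic cells secrete, was 0.444, 0.370 and 0.187 FPKM in B16F10 RFP+ and 1.66, 1.31 and 1.62 FPKM in B16F10 RFP-. Its MC38 values were 10.3, 11.1 and 7.60 FPKM in RFP+ and 15.7, 24.3 and 12.8 FPKM in RFP-. The gates did not overlap in either tumour, and each numbered pair was lower in RFP+. On the log2 scale RFP+ minus RFP- was -0.92 ± 0.23 in B16F10 (-0.89 without RFP- library 12) and -0.77 ± 0.23 in MC38, and the RFP- mean was 4.57 times the RFP+ mean in B16F10 and 1.82 times in MC38. The MC38 mean was 28.9 times the B16F10 mean in RFP+ and 11.5 times in RFP-.

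Of the other 9 nucleases listed, 6 passed the filter and none passed between gates without the block. With the block, Pld4, an exonuclease of the endolysosome, was lower in B16F10 RFP+ (-0.72 ± 0.11, adjusted p = 0.00821). Between tumours 4 were called lower in B16F10 in both gates, as were 20.0% of all genes in RFP+ and 21.9% in RFP-. Among the 4 were Trex1, the cytosolic DNA exonuclease, at -2.60 ± 0.19 in RFP+ (limma adjusted p = 1.64e-07), and Samhd1, a dNTP hydrolase, at -2.54 ± 0.18 in RFP- (adjusted p = 1.47e-07). After core scaling 2 were lower and 3 higher in RFP+ (2.68% and 84.0% of all genes). In RFP- 0 were lower and 2 higher (2.99% and 82.3% of all genes).

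Asb2 differed from the other 8 genes in its order of groups. It was 5.07, 8.89 and 5.52 FPKM in B16F10 RFP+ and 6.97, 6.78 and 8.88 FPKM in B16F10 RFP-, with overlap. In MC38 it was 2.79, 1.71 and 5.04 FPKM in RFP+ and 8.22, 8.12 and 14.9 FPKM in RFP-, with no overlap. The log2 difference RFP+ minus RFP- was -0.22 ± 0.31 in B16F10 (-0.26 without RFP- library 12) and -1.48 ± 0.31 in MC38. The B16F10 value ran from -0.43 without RFP+ library 11 to -0.081 without RFP+ library 12. The gate difference in B16F10 minus that in MC38 was 1.26 ± 0.44. The substrate gene Flna did not pass between gates, and it averaged 66.1 ± 8.29 FPKM in B16F10 RFP+ and 136 ± 14.6 FPKM in MC38 RFP+ (log2 difference -1.03 ± 0.19, limma adjusted p = 0.000549), which turned to 0.92 after core scaling. Of 13 ASB family and partner genes past the filter, 5 were called higher and 4 lower in B16F10 in each gate. Over all genes 35.2% were called higher and 20.0% lower in RFP+, and 37.8% and 21.9% in RFP-. After core scaling 10 were higher and 0 lower in RFP+ (84.0% and 2.68% of all genes). In RFP- 10 were higher and 1 lower (82.3% and 2.99% of all genes).

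Side by side, RFP+ means were lower than RFP- means for 8 of the 9 genes in B16F10 (all but Clec2d) and for 8 of the 9 in MC38 (all but Hcst), against 51.4% and 49.4% of all genes tested. Without B16F10 RFP- library 12, 7 of the 9 were lower in B16F10 (all but Clec2d and Hcst), against 51.2% of all genes. The median log2 difference of the 9 genes was -0.46 in B16F10 and -0.76 in MC38, beside -0.012 and 0.0017 over all genes. In B16F10, 4 genes were lower with no overlap between gates (Klra17, Klrb1b, Sh2d1b1 and Dnase1l3), as were 6.22% of all genes. In MC38, 6 genes were (the same 4 with Klrk1 and Asb2), as were 4.98% of all genes. All numbered pairs were lower in RFP+ for 5 genes in B16F10 and for 7 in MC38. This count of pairs was not made over all genes, so it has no share to be read against.

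Core scaling moved the median gate difference of all genes to -0.19 in B16F10 and -0.14 in MC38. FPKM were multiplied before 1 was added, with mean log2 shifts of 0.89 in B16F10 RFP+ and 1.09 in B16F10 RFP-. Low genes in B16F10 were thereby understated less, and part of their move comes from this step and not from the core levels. The gate differences below carry both effects of core scaling. In B16F10 core scaling moved 7 genes by over 1.5 times, Klra17 to -1.45 ± 0.41, Dnase1l3 to -1.39 ± 0.31, Klra2 to -0.57 ± 0.24, Klrk1 to -0.75 ± 0.36, Asb2 to -0.41 ± 0.39, Hcst to -0.43 ± 0.29 and Clec2d to 0.12 ± 0.33. Klrb1b then lay at -1.75 ± 0.43 and Sh2d1b1 at -1.69 ± 0.28. In MC38 it moved 3 by that much, Klra2 to -0.52 ± 0.24, Clec2d to -0.20 ± 0.33 and Hcst to 0.27 ± 0.29. The other scaled MC38 values were -2.03 ± 0.41 for Klra17, -1.59 ± 0.43 for Klrb1b, -1.42 ± 0.39 for Asb2, -0.90 ± 0.36 for Klrk1, -0.89 ± 0.31 for Dnase1l3 and -0.62 ± 0.28 for Sh2d1b1. Leaving out 1 library, without scaling, also moved small values: in B16F10, Klra2 lay at -0.59 without RFP- library 11 and -0.20 without RFP- library 12, Klrk1 at -0.30 without RFP+ library 3, Clec2d at 0.0081 and Hcst at -0.59 without RFP- library 11. In MC38, Clec2d ran from -0.44 without RFP+ library 3 to 0.15 without RFP+ library 2, and Hcst lay at 0.29 without RFP- library 1.

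In limma without the block, 0 of the 9 genes passed an adjusted p of 0.05 between gates in B16F10, where 0.0508% of all genes were called lower, and 0 in MC38, where 0% were. At an unadjusted p under 0.05 the same fits held 1159 genes in B16F10 and 396 in MC38. With the title number as a block, 3 genes were called lower in B16F10 (Klrb1b, Sh2d1b1 and Dnase1l3; 0.525% of all genes) and 3 in MC38 (Klra17, Klrb1b and Asb2; 0.0847% of all genes). Without the number 12 pair of B16F10, the blocked fit called Klrb1b and Sh2d1b1 in B16F10 and the same 3 in MC38. Since the genes were chosen on these contrasts, these calls add no independent evidence. The gate difference did not pass as differing between tumours for any of the 9 (0% of all genes called, 455 at an unadjusted p under 0.05; with the block 0 of the 9 and 0.0339% of all genes).

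**Figure D2:**
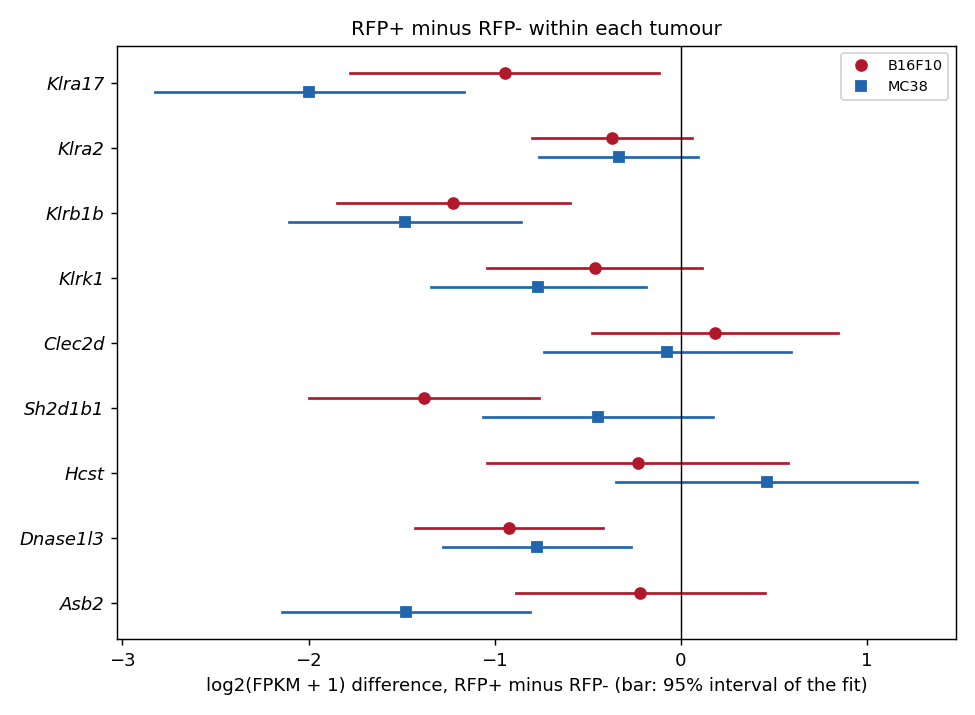
Log2(FPKM + 1) difference RFP+ minus RFP- of the 9 genes (points) with the 95% interval of the fit (bars), B16F10 above MC38 for each gene; values left of 0 are lower in RFP+. Klra17 lies at -0.95 in B16F10 and -1.995 in MC38, Klrb1b at -1.22 and -1.48, and Hcst at -0.23 and 0.46.

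Between tumours, 8 of the 9 genes were called lower in B16F10 than in MC38 in RFP+ cells, where 20.0% of all genes were, and 1 higher, Asb2, where 35.2% of all genes were. In RFP- cells 8 were called lower (21.9% of all genes) and 0 higher (37.8% of all genes), with Asb2 at -0.38 ± 0.31. The log2 differences B16F10 minus MC38 in RFP+ were -4.16 ± 0.20 for Klra2, -3.44 ± 0.29 for Klrb1b, -3.25 ± 0.27 for Klrk1 and -3.18 ± 0.29 for Sh2d1b1. They were -2.99 ± 0.23 for Dnase1l3, -2.29 ± 0.38 for Klra17, -2.06 ± 0.38 for Hcst, -1.17 ± 0.31 for Clec2d and 0.88 ± 0.31 for Asb2. In RFP-, Klra2 lay at -4.12 ± 0.20, Klrb1b at -3.70 ± 0.29, Klrk1 at -3.56 ± 0.27 and Klra17 at -3.33 ± 0.38. By ratio of FPKM means the order differs, since MC38 exceeded B16F10 in RFP- 20.8 times for Klrk1 and 20.0 times for Klra2. The groups overlapped in RFP- for Hcst and Asb2 and in RFP+ for none. The median over the 9 genes was -2.99 in RFP+ and -2.84 in RFP-, beside 0.23 over all genes in each gate.

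Scaling to the macrophage core moved the median of all genes to 1.87 in RFP+ and 1.89 in RFP-. After it, 6 of the 9 genes were called lower in B16F10 in RFP+ (Klra17, Klra2, Klrb1b, Klrk1, Sh2d1b1 and Dnase1l3; 2.68% of all genes) and 5 in RFP- (the same without Sh2d1b1; 2.99% of all genes). Asb2 was called higher in both gates, where 84.0% of all genes in RFP+ and 82.3% in RFP- were. Klra2 then lay at -2.34 ± 0.24 in RFP+ and -2.29 ± 0.24 in RFP-, and Hcst at -0.15 ± 0.29 in RFP+ and 0.54 ± 0.29 in RFP-. Clec2d lay at 0.29 ± 0.33 in RFP+ and -0.026 ± 0.33 in RFP-. The tumour line, the melanocytic RNA and the depth all differ between these groups and cannot be told apart here.

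**Figure D3:**
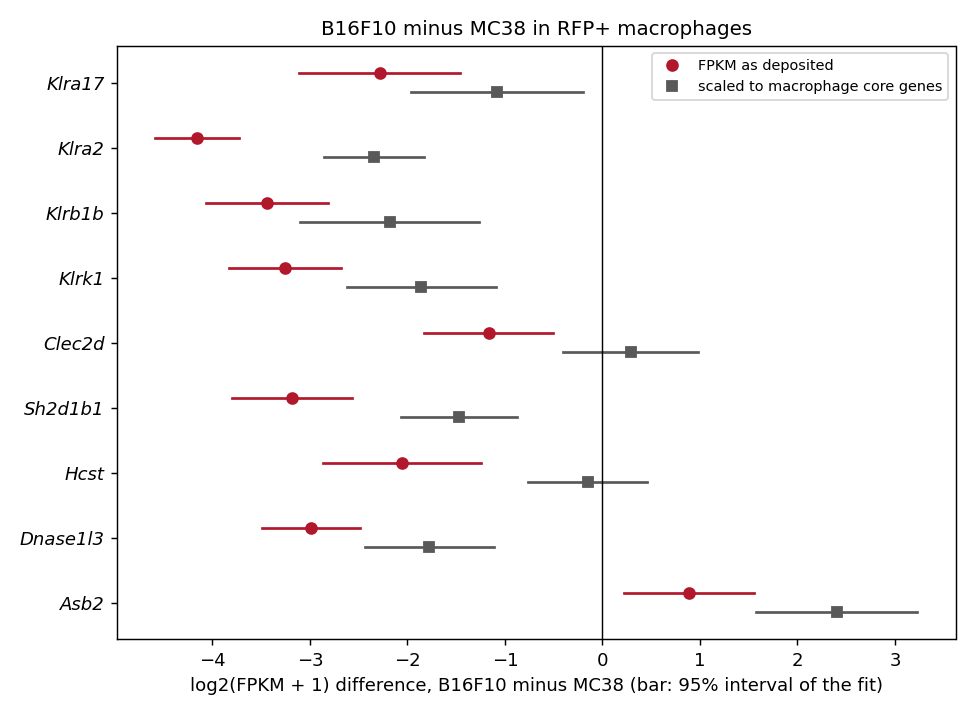
Log2(FPKM + 1) difference B16F10 minus MC38 in RFP+ cells for the 9 genes, from FPKM as deposited (circles) and after scaling to the macrophage core genes (squares), with the 95% interval of the fit. Klra2 lies at -4.16 as deposited and at -2.34 scaled, and Clec2d crosses 0 after scaling.

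Markers of other cell types that could carry these genes were summed in each library. The 12 NK genes summed to 4.97 to 6.61 FPKM in B16F10 RFP+ and 5.49 to 12.1 FPKM in B16F10 RFP-, and to 26.3 to 27.7 FPKM in MC38 RFP+ and 33.1 to 44.0 FPKM in MC38 RFP-. Cd244, which macrophages also express and which is also a gene of the SLAM list, averaged 21.3 ± 1.01 FPKM of this sum in MC38 RFP+ and 29.2 ± 0.979 FPKM in MC38 RFP-. Ncr1, the NK-defining receptor NKp46, reached at most 0.318 FPKM in any library, Eomes 0.176 and Prf1 0.686 FPKM. Klrb1c, which encodes the NK1.1 antigen removed by the gate, reached at most 1.14 FPKM. Genes of cytotoxic granules were not all near 0. Gzma averaged 2.003 ± 1.30 FPKM in MC38 RFP+ and 3.12 ± 3.14 FPKM in MC38 RFP-, and Gzmb 1.06 ± 0.509 FPKM in MC38 RFP+ and 1.53 ± 0.638 FPKM in MC38 RFP-. Nkg7 averaged 1.55 ± 0.953 FPKM in B16F10 RFP+ and 4.60 ± 2.68 FPKM in B16F10 RFP-, and 2.097 ± 0.774 FPKM in MC38 RFP+ and 2.39 ± 0.890 FPKM in MC38 RFP-. The NK sum was lower in RFP+ with no overlap between MC38 gates, and it was lower in B16F10 than in MC38 in each gate. The part of NK cell RNA in the differences of the 9 genes was not tested.

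Conventional dendritic cell genes (12) had lower sums in RFP+ in B16F10 and a lower but overlapping range in MC38. Their sum was lower in RFP+ in every numbered pair of both tumours, as were Klra17, Klrb1b, Klrk1, Sh2d1b1 and Dnase1l3. Across MC38 libraries the sum was lowest in library 3 of each gate. Klra17 and Klrk1 were highest there, and Klrb1b and Dnase1l3 lowest. Sh2d1b1 varied little across MC38 libraries, at 30.7 to 31.1 FPKM in RFP+ and 41.2 to 44.8 FPKM in RFP-. None of the 11 past the filter passed the test between gates without the block, and with it 1 did in B16F10 and 0 in MC38. The 12 genes summed to 30.7 to 52.1 FPKM in B16F10 RFP+ and 52.7 to 87.5 FPKM in B16F10 RFP-. In MC38 the sums were 35.4 to 64.1 FPKM in RFP+ and 55.1 to 103 FPKM in RFP-. Of the 11 past the filter, 10 had a lower mean in RFP+ in B16F10 and 11 in MC38, beside 51.4% and 49.4% of all genes. Xcr1 averaged 0.166 ± 0.208 FPKM in B16F10 RFP+ and 0.767 ± 0.238 FPKM in B16F10 RFP-, and 1.24 ± 0.334 FPKM in MC38 RFP+ and 3.79 ± 0.929 FPKM in MC38 RFP-. T cell genes (12) summed to 1.93 to 11.2 FPKM and B cell genes (6) to 8.40 to 37.5 FPKM, with ranges that overlap between gates in both tumours. The B cell sum was also lower in RFP+ in every numbered pair of both tumours. The part of dendritic cell or B cell RNA in the gate differences was not tested.

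The 9 plasmacytoid dendritic cell genes summed to 135 to 184 FPKM in B16F10 RFP+ and 135 to 237 FPKM in B16F10 RFP-, and to 476 to 675 FPKM in MC38 RFP+ and 439 to 655 FPKM in MC38 RFP-. Most of this was Bst2 (up to 512 FPKM) and Irf8 (up to 140.3 FPKM), which macrophages also express, with Tcf4 up to 15.6 and Cox6a2 up to 15.4 FPKM. Siglech and Ccr9, which define these cells, reached at most 0.581 and 0.513 FPKM. Of the 6 past the filter, 5 were called lower in B16F10 than in MC38 in each gate (limma, adjusted over all genes), the direction of Klra17. The shares over all genes were 20.0% in RFP+ and 21.9% in RFP-. In RFP- 1 was called higher (37.8% of all genes). After core scaling 0 were called lower in RFP+ (2.68% of all genes) and 1 in RFP- (2.99%). Neutrophil genes (6) summed to 50.1 to 366 FPKM in B16F10 RFP+ and 32.9 to 841 FPKM in B16F10 RFP-, and to 43.9 to 50.1 FPKM in MC38 RFP+ and 40.9 to 46.4 FPKM in MC38 RFP-. In B16F10, 5 of the 6 had a lower mean in RFP+ (median log2 difference -0.53), beside 51.4% of all genes. None passed without the block. With it 1 was lower, as were 0.525% of all genes, and 1 higher. Between tumours 3 were called higher and 1 lower in B16F10 in RFP+ (35.2% and 20.0% of all genes). In RFP- 5 were called higher and 1 lower (37.8% and 21.9% of all genes). The part of these cells in the differences of the 9 genes was not tested.

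**Figure D4:**
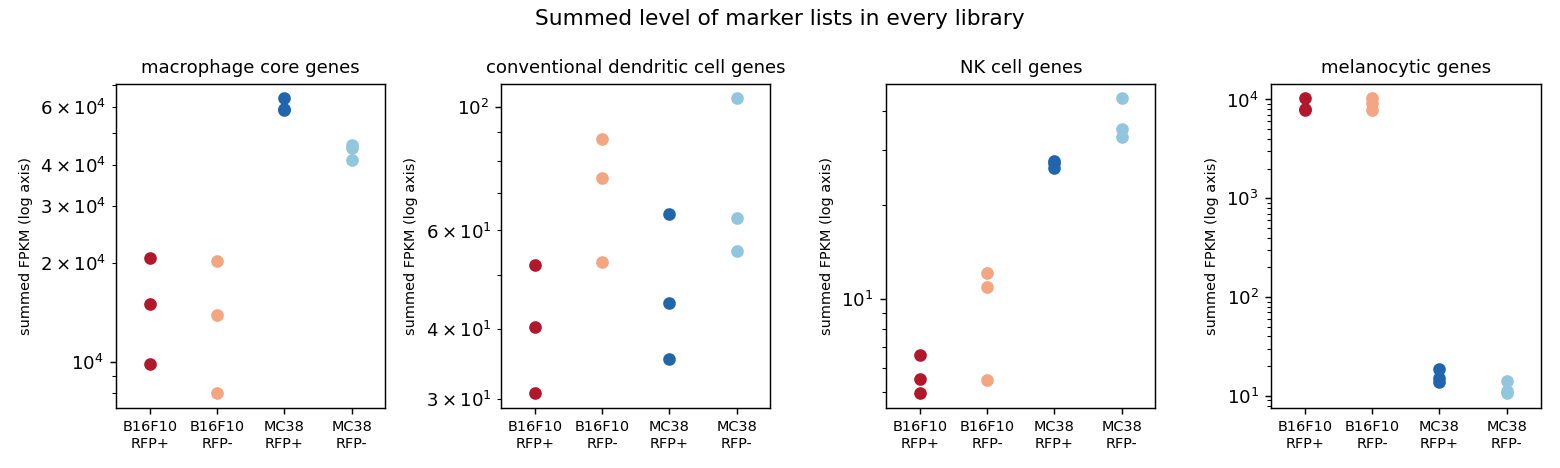
Summed FPKM (log axis) of 4 marker lists in every library by tumour and RFP gate; each point is a library. Macrophage core genes lie at 8009 to 20684 FPKM in B16F10 and at 41294 to 63909 FPKM in MC38, melanocytic genes are high in B16F10 alone, and conventional dendritic cell genes are lower in RFP+ with overlap in MC38.

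The 5 receptor genes on chromosome 6 bound a stretch from Klrb1b to Klra2 (128813706 to 131247362) that holds 108 annotated genes, 48 of them in the tables and 19 past the filter. Of the other 14, none was called between gates without the block. With it 1 was called lower in B16F10 RFP+ (Clec12a, -0.53 ± 0.11, limma adjusted p = 0.0420), as were 0.525% of all genes. A lower mean in RFP+ was found for 10 of the 14 in B16F10 and 9 of the 14 in MC38, beside 51.4% and 49.4% of all genes. Between tumours 9 of the 14 were called lower and 1 higher in B16F10 in each gate. Over all genes 20.0% were called lower and 35.2% higher in RFP+, and 21.9% and 37.8% in RFP-. Cd69, an early activation receptor of leukocytes, averaged 4.37 ± 2.98 FPKM in B16F10 RFP+ and 83.3 ± 16.7 FPKM in MC38 RFP+ (log2 difference -4.16 ± 0.39, limma adjusted p = 1.57e-06). After core scaling 2 of the 14 were lower and 4 higher in RFP+ (2.68% and 84.0% of all genes). In RFP- 3 were lower and 4 higher (2.99% and 82.3% of all genes). Clec9a, a lectin of cross-presenting dendritic cells, had the smallest p of the listed NK complex receptors between MC38 gates, at -0.80 ± 0.19 (adjusted p = 0.281), and did not pass.

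Over the 12 libraries the genes most like each of the 9 were named by Pearson r of log2(FPKM + 1), a description in which the libraries share groups, tumour RNA and depth. Klra2 was most like H2-T23 (r = 0.998), a nonclassical class I gene, and F11r (0.998). Sh2d1b1 was most like H2-DMb1 (0.991) and H2-DMa (0.985), which load peptides onto class II molecules, and Dnase1l3 like H2-DMb1 (0.982) and Tlr12 (0.980). Klrk1 was most like Ptger4 (0.990) and Tbc1d8 (0.989), Klrb1b like Serpinb9 (0.967) and Ncoa7 (0.965), and Klra17 like Lifr (0.943) and Sirpb1a (0.941). Clec2d was most like Vamp4 (0.978) and Ier5 (0.960), and Hcst like Pafah1b3 (0.974) and Apoe (0.972). Asb2 had the weakest likeness, with Tmem176b at 0.881.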

How the data were processed

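Each of the 12 libraries came as 1 deposited table of gene symbols with FPKM values, the unit per the file headers. Per the labels' protocols, RNA was taken up in TRI Reagent, and SMART-Seq HT and Nextera XT kits gave the libraries. TopHat2 2.1.1, Bowtie2 2.2.8, SAMtools 0.1.18, Cuffdiff 2.2.1 and the mm10 build are named in the submitters' processing notes. How libraries were scaled, and which annotation and strand setting were used, was not given in the sources used here.

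Values were used as log2(FPKM + 1), and the filter (1 FPKM or more in 3 or more libraries) kept 11808 of 24346 genes. One limma model (limma 3.58.1, R 4.3.3, eBayes with a trend) of 4 group means left 8 residual degrees of freedom. Tests were two-sided and adjusted by Benjamini-Hochberg over all genes kept, with a threshold of 0.05, and the scripts were tested on simulated data. Groups were taken from titles and descriptions. Libraries with the same title number deviated together in all 6 pairs (r 0.228 to 0.443, against -0.306 to 0.0178 for different numbers), so the number was also fitted as a block (4 residual degrees of freedom; for B16F10 minus MC38 a random block with a correlation of 0.291). Core scaling multiplied the FPKM of each library, before 1 was added, so that its mean log2 over 13 macrophage core genes was equal. Alternatives were pseudocounts (0.1, 5), filters (none, 5 FPKM), quantile normalization, the compared groups alone, the block, and each library left out. The block with core scaling, core scaling and the block without the B16F10 number 12 pair were chosen after seeing the data. The 9 genes and all gene lists were chosen with earlier results of these data known. Besides the 9 genes, the rule named up to 4 genes of a function list past the threshold by size, or else the 1 with the smallest p, and the 2 genes most like each of the 9 among those with a mean of at least 5 FPKM. Markers, Cd84, Pld4, Tyrobp, Sh2d1a and Sh2d1b2, named outside it, were chosen after their values were seen. A few genes the rule named are not reported here. Positions come from GENCODE and promoters from RefSeq, read with Python 3.11.15 and Biopython 1.88 (numpy 2.4.6), and plots were drawn with matplotlib 3.10.9.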

Additional observations from a re-analysis of the deposited data

How the results depend on the processing

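Over all alternatives, the 9 genes kept the sign of their log2 difference in 955 of 981 refits, and the cause of each change below was not tested. Genes of the 9 called lower in RFP+ in B16F10 (0 as reported) numbered 2 with a pseudocount of 0.1, 3 with the replicate block, 1 with core scaling, 5 with the block and core scaling, 2 with the block omitting the number 12 pair, and 0 to 1 on leaving out each library (1 without B16F10 RFP- library 11, Sh2d1b1). In MC38 (0 as reported) they numbered 2 with a pseudocount of 5, 3 with each of the 3 blocked fits, and 0 to 1 on leaving out each library (1 without MC38 RFP+ library 3, Klra17). Asb2, the 1 gene called higher in B16F10 in RFP+, was not called (0) with no filter, with quantile normalization, or without B16F10 RFP+ library 11, MC38 RFP+ library 1 or MC38 RFP+ library 2 (0 to 1 over libraries). In RFP-, core scaling with or without the block left 5 lower and 1 higher.

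Counts over all genes moved as well. In B16F10, 6 genes lower and 15 higher in RFP+ became 62 and 98 with the block, 65 and 98 with the block omitting the number 12 pair, 1125 and 139 with the block and core scaling, 0 and 7 with no filter, 1 and 4 with the compared groups alone, and 0 to 39 and 4 to 51 on leaving out each library (39 and 51 without B16F10 RFP- library 11, 0 and 4 without B16F10 RFP- library 12); 6 were higher with a pseudocount of 0.1 and 7 with core scaling, and 3 lower with quantile normalization. In MC38, 0 lower and 3 higher became 10 and 42 with the block, 24 and 113 omitting the number 12 pair, 8 and 8 with the block and core scaling, 3 and 8 with a pseudocount of 5, 1 and 5 with quantile normalization, 1 and 7 with the compared groups alone, 1 higher with core scaling, and 0 to 4 lower and 1 to 5 higher on leaving out each library. The difference between tumours (0 genes) gave 1 lower and 3 higher with the block, 4 and 3 omitting the number 12 pair, 1 and 1 with the block and core scaling, 2 higher with no filter, and 0 to 1 on leaving out each library. Between tumours, 2364 lower and 4159 higher in RFP+ became 316 and 9921 with core scaling (299 and 9825 with the block), and 2584 and 4467 in RFP- became 353 and 9723 (319 and 9627). On leaving out each library these ran from 2042 to 2629 and 3611 to 4744 in RFP+.

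Core scaling, with or without the block, turned the B16F10 minus MC38 log2 difference in RFP+ to 0.29 for Clec2d, 1.46 for Raet1d, 0.22 for B2m, 0.39 for H2-L, 0.57 for Dnase1l1 and 0.92 for Flna. In RFP- it turned to 0.54 for Hcst, 0.12 for Lat2, 0.27 for H2-D1, 0.37 for B2m, 0.41 for H2-L, 0.30 for Dnase1l1 and 0.069 for Asb13. Clec2i turned to 0.032 between MC38 gates without MC38 RFP+ library 1, and ran from -0.40 to 0.032 on leaving out each library. Of the listed genes' refits, 68 lost the threshold, 14 gained it and 23 turned. The compared groups alone cannot give the difference between tumours, which uses all 4, and Asb1, Clec2i and Clec9a had no value under the filter of 5 FPKM. Depth limits Klrk1, Klrb1b, Dnase1l3 and Klra17 in B16F10, where they stood at or near 1 FPKM in libraries with fewer fragments.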
